A study of Homo sapiens and Mus musculus with 18 samples.

Results

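LIN28A, LIN28B, TRIM71, HMGA2, IGF2BP1, IGF2BP2, IGF2BP3, MYC, MYCN and MYCL are growth regulators of early embryonic cells, and their transcripts were followed from pluripotent cells to gastruloids in human and mouse. The members were chosen by name: a row of either count table belonged to the set if its gene identifier maps to 1 of these human symbols or to the mouse gene of the same name. This gave 10 of 44910 human genes and 10 of 29720 mouse genes, or 20 of 74630 rows in all, and all 20 passed the filter on low counts. The rule itself uses no measured value, although it was drawn up with earlier results of these data known.

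RNA-seq covered 18 samples, 2 biological replicates of each of 9 groups. Human cells were H9 ESCs in the naïve and the primed state, RUES2-GLR ESCs in the primed state, and RA-gastruloids made from RUES2-GLR and sampled early (24 h) or late (120 h). Mouse cells came from E14 and were sampled as naïve ESCs, as EpiLCs at day 2, and as gastruloids at day 3 (early) or day 6 (late). The naïve H9 ESCs had been chemically reset, grown in PXGL medium (PD0325901, XAV939, a protein kinase C inhibitor and LIF) on irradiated mouse embryonic fibroblast feeders, and then passaged without feeders. Both primed human lines were kept in StemFlex on Geltrex. RUES2-GLR is a reporter line carrying SOX2-mCitrine and further germ-layer reporters, in all 6 RUES2-GLR-derived libraries alike. Human RA-gastruloids were formed from cells exposed to the WNT agonist CHIR99021 and retinoic acid (RA). Matrigel and RA were added after the early sampling, so late RA-gastruloids alone received this addition. In the human step from early to late, time and this addition cannot be told apart. Mouse naïve ESCs were kept in CHIR99021, PD0325901 and LIF, EpiLCs received ActivinA, bFGF and KSR, and mouse gastruloids were seeded straight from naïve ESCs and given a pulse of CHIR99021. EpiLCs are therefore a reference state for mouse gastruloids and not the cells that formed them. The naïve human state was sampled in H9 and the RA-gastruloids in RUES2-GLR alone, and the step between the primed groups is a change of line. Replicates of a stage came from 1 experimental batch, so p-values measure only the spread within it.

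LIN28A and LIN28B are RNA-binding proteins of embryonic cells that block the maturation of the let-7 microRNAs. Mature let-7 in turn represses transcripts with matches to its seed, the classic ones being HMGA2, the IGF2BP family, TRIM71, LIN28A and LIN28B themselves, and members of the MYC family. The circuit is known for holding early and germ-line cells in a growing, undifferentiated state, and its release accompanies developmental timing.

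The let-7 seed is shared by 11 mature human miRNAs in the RefSeq table (GRCh38.p14). It is shown for 4 of them, with bases 2 to 8, the seed, in capitals and the sequence read 5′ to 3′.
hsa-let-7a-5p: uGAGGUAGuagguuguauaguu
hsa-let-7d-5p: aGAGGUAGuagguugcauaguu
hsa-let-7i-5p: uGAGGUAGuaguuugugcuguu
hsa-miR-98-5p: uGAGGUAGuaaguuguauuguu
The complement of this seed, CTACCTC (a 7mer match), or CTACCTCA (the same with a following A, an 8mer match, counted within the 7mers), was searched on the transcript strand of the 3′ UTR of each gene's canonical transcript in GENCODE. The windows below were chosen because they are the site nearest to the stop codon or the ones most alike in both species, and capitals mark the match. They are written in transcript direction.
human LIN28B, chr6:105078813-105078834, GRCh38, plus strand: cccggttgcaaagtCTACCTCA
mouse Lin28b, chr10:45257118-45257139, GRCm39, minus strand: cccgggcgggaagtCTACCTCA
human HMGA2, chr12:65963299-65963320, GRCh38, plus strand: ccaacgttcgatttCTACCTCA
human TRIM71, chr3:32892049-32892070, GRCh38, plus strand: gtgataatttctatCTACCTCA
mouse Trim71, chr9:114341444-114341465, GRCm39, minus strand: gtgataatttctatCTACCTCA
human IGF2BP3, chr7:23311795-23311816, GRCh38, minus strand: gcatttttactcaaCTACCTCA
mouse Igf2bp3, chr6:49063721-49063742, GRCm39, minus strand: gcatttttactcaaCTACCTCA
The human and mouse windows shown for TRIM71 and IGF2BP3 were identical over all 22 bases, and those of LIN28B shared 18 of 22. Every window was built around the 7mer, so its bases are the same in each pair by construction. The other human TRIM71 windows shared 13 to 21 of 22 bases with the most alike mouse window. Conservation was not tested.

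At least 1 match was present in 7 of the 10 human members, against 9.72% of 19225 human protein-coding genes with an annotated 3′ UTR. The 7 were LIN28A (1 match), LIN28B (4), TRIM71 (6), HMGA2 (4), IGF2BP1 (4), IGF2BP2 (1) and IGF2BP3 (1). Among all genes, 36 (0.187%) held 3 or more, and 4 of those were members. The 3 MYC genes held none in either species. Length matters for such counts, since member 3′ UTRs ran to 6701 bases (IGF2BP1) against a median of 1064 over all genes. Over the length of each member's 3′ UTR, a match was present in 5.14% (MYCN) to 32.4% (IGF2BP1) of human 3′ UTRs at least as long. For LIN28A, IGF2BP2 and IGF2BP3, with 1 match each, these shares were 18.2%, 12.6% and 11.8%. Of the 835 human 3′ UTRs at least as long as that of TRIM71, itself included, 0.120% had 6 or more matches within the same length. In mouse, 6 of 10 members held a match, against 9.91% of 20684 genes. The shares at equal length ran there from 0.215% (Hmga2) to 34.0% (Igf2bp1). Lin28a had 2, Lin28b, Trim71 and Igf2bp1 had 4 each, and Igf2bp2 and Igf2bp3 had 1 each. The canonical mouse Hmga2 transcript has a 3′ UTR of 37 bases and no match, while the transcript of that gene with the longest 3′ UTR (3021 bases) has 4. The longest 3′ UTR of human HMGA2, which belongs to another splice form, has 0. A match is a description of these letters and not a measured binding site, and mature let-7 was not measured by this assay.

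**Figure D1:**
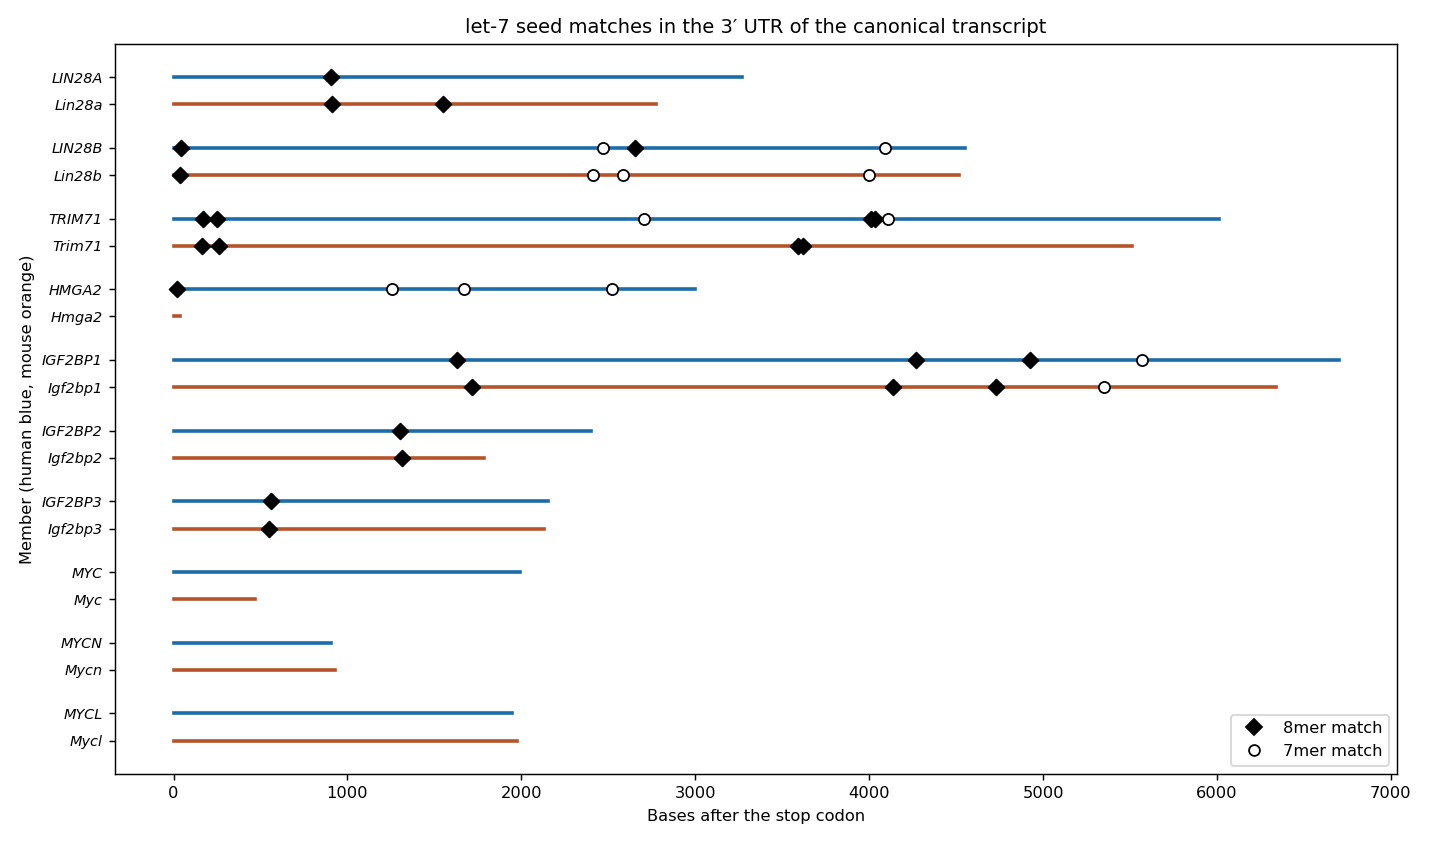
Lines show the 3′ UTR of the canonical transcript of each member (x axis: bases after the stop codon; human in blue, mouse in orange), with filled diamonds for 8mer and open circles for 7mer matches to the let-7 seed. Human TRIM71 holds 6 matches and the MYC genes hold none.

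Values are read counts per gene, scaled by edgeR's TMM method and given as CPM, counts relative to the scaled library total. CPM serves for comparing a gene between libraries. Levels of different genes are compared only as shares of TPM, which divides each count by gene length. Total counts ran from 3681739 (primed RUES2-GLR replicate 2) to 38771193 in human libraries, those of mouse libraries ran from 6487157 to 20052505, and the lowest raw count of any member in any library was 40 (mouse Lin28b). The labels were checked against cell state markers. All 6 human naïve markers (KLF17 among them) fell and all 6 primed markers rose from naïve to primed H9 ESCs. All 6 primitive streak markers rose in early RA-gastruloids, and in mouse EpiLCs all 6 naïve markers fell and all 6 primed markers rose. One feature set the primed RUES2-GLR libraries apart. Genes of the mitochondrial genome took 21.4% and 22.4% of their counts, against 2.68% to 6.71% in the other human libraries. TMM scaling gave a median log2 fold change over all genes of −0.12 from primed H9 to primed RUES2-GLR ESCs. The median was 0.00 without mitochondrial genes, and also with the size factors of DESeq2 or without either naïve H9 library. With upper quartile scaling it was 0.02. From primed RUES2-GLR ESCs to early and to late RA-gastruloids it was 0.08 each, and 0.00 without mitochondrial genes. Log2 changes of members in these steps carry these shifts, whose source was not tested.

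A transcript was called differentially expressed (a DET) where its adjusted p was under 0.05 and its log2 fold change was above 1 in size, and "rose" and "fell" are used for DETs only. From naïve to primed H9 ESCs, 5 members rose and 0 fell, while 25.5% of all tested genes rose and 22.3% fell. From primed H9 to primed RUES2-GLR ESCs, 0 rose and 2 fell (all genes: 17.1% and 12.2%). Early RA-gastruloids against primed RUES2-GLR ESCs had 3 that rose and 2 that fell (12% and 17.6%). Between early and late RA-gastruloids, 2 rose and 1 fell (11.8% and 13.2%). Over the whole course from primed RUES2-GLR ESCs to late RA-gastruloids, 4 rose and 2 fell (17.3% and 21%). A single member is 10% of the set, so counts of 1 or 2 beside these backgrounds are no result about the members as a group.

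In mouse, 3 members rose and 1 fell from naïve ESCs to EpiLCs, against 17.7% and 12.1% of all tested genes. From EpiLCs to early gastruloids, 1 rose and 3 fell (11.7% and 9.24%). Naïve ESCs and early gastruloids, the step that follows the cells themselves, differed by 2 members that rose and 0 that fell (16.2% and 6.81%). From early to late gastruloids, 5 rose and 0 fell (20.1% and 19.1%). The median log2 fold change of the 10 members in that last step was 0.99, and that of all genes −0.03. From naïve to primed H9 ESCs, the corresponding medians were 1.02 and 0.00. In bulk RNA, a change in the share of cells that carry a transcript cannot be told apart from a change in its amount per cell.

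**Figure D2:**
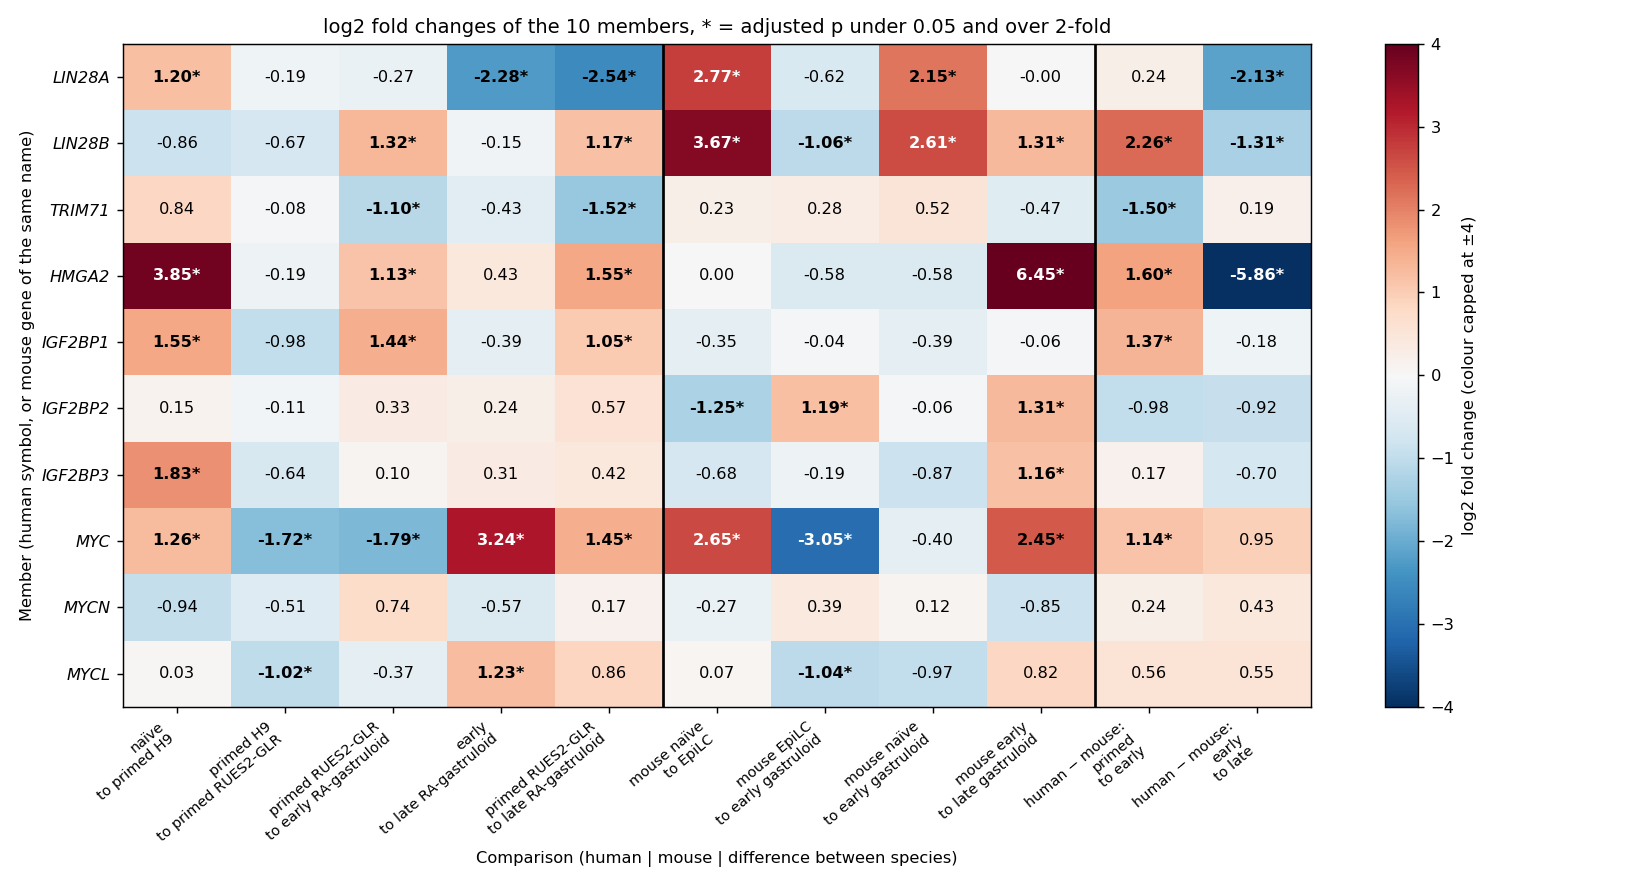
Each cell gives the log2 fold change of a member (row) in a comparison (column), with human steps on the left, mouse steps in the middle and the difference between species on the right. Bold values with a star are DETs, and colour is capped at an absolute value of 4. HMGA2 carries the largest value, 6.45 in the mouse step from early to late gastruloids.

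LIN28A (ENSG00000131914; chromosome 1, 26410817 to 26429728, GRCh38) encodes the paralogue that recruits terminal uridylyltransferases to pre-let-7. It had 419 and 428 CPM in naïve H9, 937 and 1007 CPM in primed H9 and 921 and 784 CPM in primed RUES2-GLR ESCs. Early RA-gastruloids had 716 and 705 CPM, and both late RA-gastruloid libraries 147 CPM. All 5 groups were separate in replicate range, with late RA-gastruloids lowest and primed H9 ESCs highest. LIN28A rose from naïve to primed H9 ESCs (log2 fold change 1.20, standard error, SE, 0.10, edgeR's quasi-likelihood test, adjusted p = 3.37e-12). It fell from early to late RA-gastruloids, by 2.28 on the log2 scale (SE 0.10, edgeR's quasi-likelihood test, adjusted p = 6.38e-18).

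Mouse Lin28a (ENSMUSG00000050966; chromosome 4, 133730641 to 133746152, GRCm39) was lowest in naïve ESCs and highest in EpiLCs. Naïve ESCs had 85.5 and 89.6 CPM, and EpiLCs 595 and 600.4 CPM. Early gastruloids had 391 and 389 CPM, and late gastruloids 388 and 389.9 CPM. Early and late gastruloids overlapped, with a log2 fold change of −0.00 (SE 0.05, edgeR's quasi-likelihood test, adjusted p = 0.957). The rise from naïve ESCs was 2.77 to EpiLCs and 2.15 to early gastruloids, on the log2 scale.

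LIN28B (ENSG00000187772; chromosome 6, 104936616 to 105083332) encodes the second paralogue, which can hold primary let-7 transcripts in the nucleus. Its human order differed from that of LIN28A. It was highest in naïve H9 ESCs, at 260 and 226 CPM, and lowest in primed RUES2-GLR ESCs, at 85.4 and 83.2 CPM. Primed H9 ESCs lay between, at 130.3 and 137 CPM. It rose in early RA-gastruloids over primed RUES2-GLR ESCs, to 208 and 214 CPM (log2 fold change 1.32, SE 0.12, edgeR's quasi-likelihood test, adjusted p = 6.60e-11). Late RA-gastruloids, at 167 and 214 CPM, overlapped the early ones.

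Mouse Lin28b (ENSMUSG00000063804; chromosome 10, 45252716 to 45362491) had 5.58 and 4.31 CPM in naïve ESCs, where its TPM was the lowest of the 10 members (1.79 ± 0.366, SD, n = 2). EpiLCs had 58.1 and 63.4 CPM, a rise of 3.67 on the log2 scale (SE 0.13, edgeR's quasi-likelihood test, adjusted p = 1.32e-32). Early gastruloids had 29.7 and 28.8 CPM and late gastruloids 73.5 and 71.8 CPM. No groups overlapped, with naïve ESCs lowest and late gastruloids highest. The fall from EpiLCs to early gastruloids was 1.06 on the log2 scale, and without EpiLC replicate 2 it was 0.985 and no longer a DET. The rise from early to late gastruloids was 1.31.

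Within the LIN28 pair, the LIN28B share of summed TPM was 27.7% ± 2.28 (SD, n = 2) in naïve H9, 8.44% ± 0.103 in primed H9 and 6.23% ± 0.555 in primed RUES2-GLR ESCs. Early RA-gastruloids had 16.6% ± 0.409, and late ones 46.3% ± 4.28. The pair was thus close to even at 120 h and almost wholly LIN28A in primed cells. In mouse the Lin28b share stayed between 2.44% ± 0.510 (naïve ESCs) and 7.61% ± 0.141 (late gastruloids). Counted per CPM with no correction for length, the shares of late gastruloids were 56.3% in human and 15.7% in mouse. Reads with several equally good alignments were not counted, and GENCODE names 2 pseudogenes of LIN28A (LIN28AP1 and LIN28AP2) and none of LIN28B.

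TRIM71 (ENSG00000206557; chromosome 3, 32817997 to 32897824) encodes a LIN-41 family protein that represses and degrades target mRNAs. Primed H9 ESCs had 356 and 343 CPM and primed RUES2-GLR ESCs 352 and 304 CPM, which overlapped. Naïve H9 ESCs had 195 and 197 CPM. It fell to 155 and 153 CPM in early RA-gastruloids (log2 fold change −1.10, SE 0.11, edgeR's quasi-likelihood test, adjusted p = 3.59e-10). Late RA-gastruloids had 105 and 124 CPM. Mouse Trim71 (ENSMUSG00000079259; chromosome 9, 114336201 to 114393437) was a DET in none of the 4 mouse steps, with log2 fold changes from −0.47 to 0.52. Its highest and lowest group means, 230 ± 8.75 CPM (SD, n = 2) in early gastruloids and 162 ± 11.7 CPM in naïve ESCs, differed by a factor of 1.42.

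HMGA2 (ENSG00000149948; chromosome 12, 65824460 to 65966291) encodes an AT-hook chromatin protein. It had the widest range of any member in each species. In human it stood at 19.1 and 18.2 CPM in naïve H9 ESCs, 265 and 274 CPM in primed H9 ESCs and 246 and 225 CPM in primed RUES2-GLR ESCs. Early RA-gastruloids had 513 and 518 CPM and late RA-gastruloids 643 and 744 CPM. No groups overlapped, and the late mean was 37.1 times the naïve H9 mean. The rise from naïve to primed H9 ESCs was 3.85 on the log2 scale (SE 0.12, edgeR's quasi-likelihood test, adjusted p = 5.32e-23). The rise into early RA-gastruloids was 1.13, and 0.99 with upper quartile scaling, under which it was no longer a DET.

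Mouse Hmga2 (ENSMUSG00000056758; chromosome 10, 120197180 to 120312374) was low until late gastruloids. It had 8.09 and 7.63 CPM in naïve ESCs, 7.84 and 7.83 CPM in EpiLCs, and 5.58 and 4.66 CPM in early gastruloids. Late gastruloids had 478 and 436 CPM, 89.3 times the early mean. The rise was 6.45 on the log2 scale (SE 0.09, edgeR's quasi-likelihood test, adjusted p = 1.10e-52). Naïve ESCs and EpiLCs overlapped, with a log2 fold change of 0.00 (SE 0.16) between them. Late mouse gastruloids also had all 6 fibroblast markers higher than early gastruloids (Col1a1, Col1a2, Col3a1, Dcn, Lum and Postn), whose summed level was 490.1 to 533 CPM against 2.52 to 2.99 CPM. Their part in the rise of Hmga2 and of the other 4 members that rose in this step was not tested. In naïve H9 ESCs the same list summed to 665 to 686 CPM, with DCN and LUM above 0, while both were at 0 in the libraries of both primed lines. The sum was 267 to 276 CPM in primed H9 and 562 to 628 CPM in primed RUES2-GLR ESCs. Early RA-gastruloids had 992 to 1059 CPM and late ones 583 to 686 CPM, with DCN and LUM detected in each of these groups. The sum was thus highest in early RA-gastruloids, while among the human ESC groups DCN and LUM were detected in naïve H9 alone. Of the 6, 4 fell between naïve and primed H9 ESCs while HMGA2 rose, and their part in that step was not tested either.

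**Figure D3:**
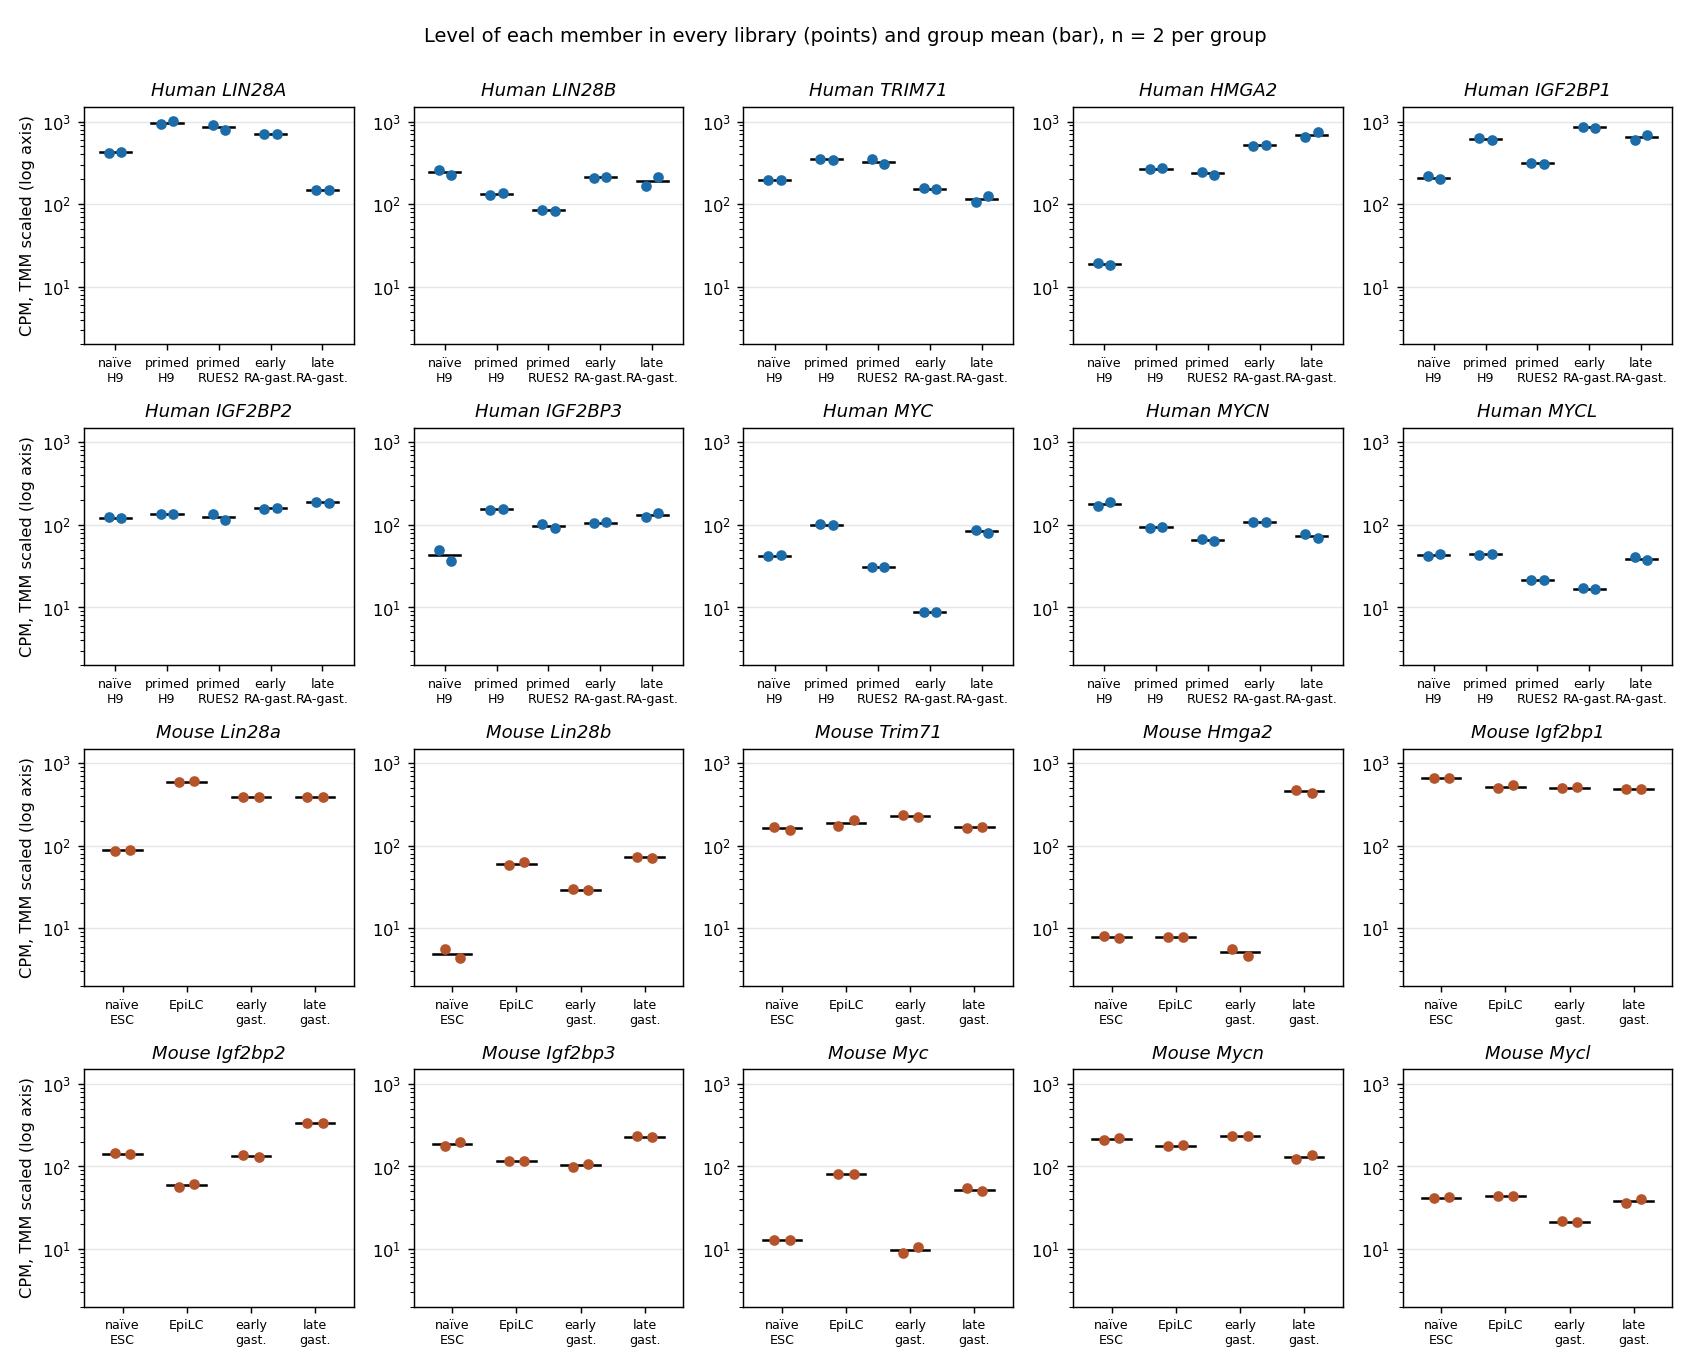
Points give the level of each member in every library (y axis: TMM-scaled CPM, log axis) and bars the mean of 2 replicates, with human panels in blue above and mouse panels in orange below. Mouse Hmga2 lies between 4.66 and 8.09 CPM in the first 3 groups and between 436 and 478 CPM in late gastruloids.

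IGF2BP1, IGF2BP2 and IGF2BP3 are paralogous RNA-binding proteins that stabilise and localise mRNAs, IGF2 and MYC among their known targets. IGF2BP1 (ENSG00000159217; chromosome 17, 48997385 to 49056145) was lowest in naïve H9 ESCs, at 219 and 200.03 CPM. Primed H9 ESCs had 624 and 605 CPM, a rise of 1.55 on the log2 scale (SE 0.10, edgeR's quasi-likelihood test, adjusted p = 1.05e-14). Primed RUES2-GLR ESCs had 319 and 304 CPM and early RA-gastruloids 858 and 838 CPM, a rise of 1.44 (SE 0.10, edgeR's quasi-likelihood test, adjusted p = 2.43e-13). Late RA-gastruloids, at 600.3 and 692 CPM, overlapped primed H9 ESCs. Over the whole course from primed RUES2-GLR ESCs the log2 fold change was 1.05, and 0.92 to 0.96 under other scalings, filters or without mitochondrial genes, none of which is a DET. The call was also lost without naïve H9 replicate 1 or 2, primed RUES2-GLR replicate 2 or late RA-gastruloid replicate 2. The primed lines differed by −0.98, just short of the threshold. Mouse Igf2bp1 (ENSMUSG00000013415; chromosome 11, 95847989 to 95896766) was a DET in no step, and its group means ran from 483 ± 5.75 CPM in late gastruloids to 660 ± 5.65 CPM in naïve ESCs (SD, n = 2).

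IGF2BP2 (ENSG00000073792; chromosome 3, 185643130 to 185825042) was a DET in no human step and in 3 of the 4 mouse steps. Human group means ran from 123 ± 2.82 CPM in naïve H9 ESCs to 188 ± 3.90 CPM in late RA-gastruloids (SD, n = 2). Mouse Igf2bp2 (ENSMUSG00000033581; chromosome 16, 21877759 to 21982049) had 144 and 140.0 CPM in naïve ESCs and fell to 55.9 and 62.0 CPM in EpiLCs. Early gastruloids had 139 and 132 CPM, just below naïve ESCs and without overlap. Late gastruloids had 338 and 337 CPM, a rise of 1.31 on the log2 scale (SE 0.06, edgeR's quasi-likelihood test, adjusted p = 3.11e-28).

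IGF2BP3 (ENSG00000136231; chromosome 7, 23310209 to 23470491) rose from naïve H9 ESCs (49.5 and 36.9 CPM) to primed H9 ESCs (152 and 155 CPM), by 1.83 on the log2 scale. Later human groups lay between 92.4 and 139 CPM and gave no further DET. Mouse Igf2bp3 (ENSMUSG00000029814; chromosome 6, 49062157 to 49191891) had 97.7 and 108 CPM in early gastruloids and rose to 232 and 227 CPM in late gastruloids (log2 fold change 1.16, SE 0.06, edgeR's quasi-likelihood test, adjusted p = 2.49e-24). IGF2BP3 is the member most exposed to a neighbour. It shares 1521 exonic bases, 17.8% of its exon length, with MALSU1 on the other strand. Counting did not use strand and ran at its defaults, under which a read overlapping both genes is given to neither. The counts of MALSU1 came to 38.2% of those of IGF2BP3, and those of Malsu1 to 16.4% of Igf2bp3 in mouse, where 18.7% of the exon length is shared.

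By share of the family's TPM, IGF2BP1 was highest in early RA-gastruloids among human groups (67.6% ± 0.757, SD, n = 2) and in EpiLCs among mouse groups (70.6% ± 0.832). Naïve H9 ESCs were the only group in which IGF2BP2 had the larger mean share, at 46.2% ± 1.70 against 43.6% ± 0.207 for IGF2BP1. With no correction for length, IGF2BP1 led there too (55.8% of CPM). In late mouse gastruloids the family held 40.4% ± 0.132 Igf2bp1, 36.9% ± 0.273 Igf2bp2 and 22.7% ± 0.141 Igf2bp3.

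MYC, MYCN and MYCL encode bHLH transcription factors that pair with MAX at E-boxes and drive growth genes. MYC (ENSG00000136997, on chromosome 8) had 41.96 and 42.7 CPM in naïve H9 ESCs and 101 CPM in both primed H9 libraries. Primed RUES2-GLR ESCs had 30.8 and 30.6 CPM, and early RA-gastruloids 8.94 and 8.78 CPM. Late RA-gastruloids had 87.7 and 79.6 CPM. All 5 groups were separate, with early RA-gastruloids lowest and primed H9 ESCs highest. MYC was the only member called in all 5 human steps. It fell by 1.79 on the log2 scale into early RA-gastruloids (SE 0.15, edgeR's quasi-likelihood test, adjusted p = 9.81e-12). It then rose by 3.24 into late RA-gastruloids (SE 0.14, edgeR's quasi-likelihood test, adjusted p = 6.57e-19).

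Mouse Myc (ENSMUSG00000022346; chromosome 15, 61857240 to 61862223) was also lowest in early gastruloids, at 9.04 and 10.6 CPM. Naïve ESCs had 12.8 and 12.7 CPM, EpiLCs 80.6 and 80.1 CPM and late gastruloids 54.3 and 50.8 CPM. The fall from EpiLCs was 3.05 on the log2 scale (SE 0.10, edgeR's quasi-likelihood test, adjusted p = 2.20e-34). Against naïve ESCs, from which the gastruloids were seeded, the log2 fold change was −0.40 and not a DET. The rise into late gastruloids was 2.45 (SE 0.11, edgeR's quasi-likelihood test, adjusted p = 1.50e-28).

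MYCN (ENSG00000134323; chromosome 2, 15940550 to 15947007), the paralogue best known from neural and embryonic tissue, was a DET in no step of either species. Its human groups ran from 65.1 ± 2.36 CPM in primed RUES2-GLR to 180 ± 13.6 CPM in naïve H9 ESCs (SD, n = 2). From naïve to primed H9 ESCs its log2 fold change was −0.94, and −1.06 (a DET) with the size factors of DESeq2. Mouse Mycn (ENSMUSG00000037169; chromosome 12, 12986094 to 12991915) ran from 130.1 ± 8.77 CPM in late to 234 ± 0.0748 CPM in early gastruloids. Early gastruloids, where MYC was lowest, had 109.5 and 109 CPM of MYCN in human, above both primed RUES2-GLR libraries, and 234 CPM in both mouse libraries. MYCNOS overlaps MYCN on the other strand and had 2.97% as many counts.

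MYCL (ENSG00000116990; chromosome 1, 39895426 to 39902256) had its lowest level in early gastruloids of both species, as MYC did. In human it had 17.0 and 16.6 CPM there and rose in late RA-gastruloids, to 40.5 and 37.8 CPM (log2 fold change 1.23, SE 0.13, edgeR's quasi-likelihood test, adjusted p = 2.06e-09). Primed H9 ESCs had 43.2 and 44.7 CPM and both primed RUES2-GLR libraries 21.7 CPM. That difference of −1.02 was −0.83 to −0.88, and not a DET, with other scalings, with at least 10 counts per sample, in a fit of the compared groups alone or without mitochondrial genes. The call was also lost without either naïve H9 library or either primed RUES2-GLR library. Mouse Mycl (ENSMUSG00000028654; chromosome 4, 122889445 to 122896278) fell from 43.6 and 44.5 CPM in EpiLCs to 21.6 and 21.1 CPM in early gastruloids, by 1.04 on the log2 scale. GENCODE names MYCLP1 and MYCLP2 as copies of MYCL.

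The MYC family was therefore mostly MYCN transcript in early gastruloids of both species. MYCN made up 88.3% ± 0.163 (SD, n = 2) of its TPM in early RA-gastruloids and 88.8% ± 0.359 in early mouse gastruloids. The MYC share was 4.30% ± 0.0416 and 4.53% ± 0.503 there. In late gastruloids it was 34.6% ± 0.00342 in human and 28.4% ± 2.38 in mouse. Naïve cells were also MYCN-rich, with 78.6% ± 0.955 in H9 and 81.2% ± 0.499 in mouse ESCs. Primed H9 ESCs and EpiLCs had a MYC share of 34.1% ± 0.693 and 31.3% ± 0.571. Primed RUES2-GLR ESCs, which formed the RA-gastruloids, had a lower MYC share, 19.4% ± 0.409, and 68.3% ± 0.714 MYCN. MYCN had the largest TPM share in every group, the lowest being 50.7% ± 0.303 in late RA-gastruloids. These shares are a description over 2 replicates, with no test. Without correction for length, MYC exceeded MYCN in late RA-gastruloids (42.6% against 37.5% of CPM) and in primed H9 ESCs (42.4% against 39.1%).

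**Figure D4:**
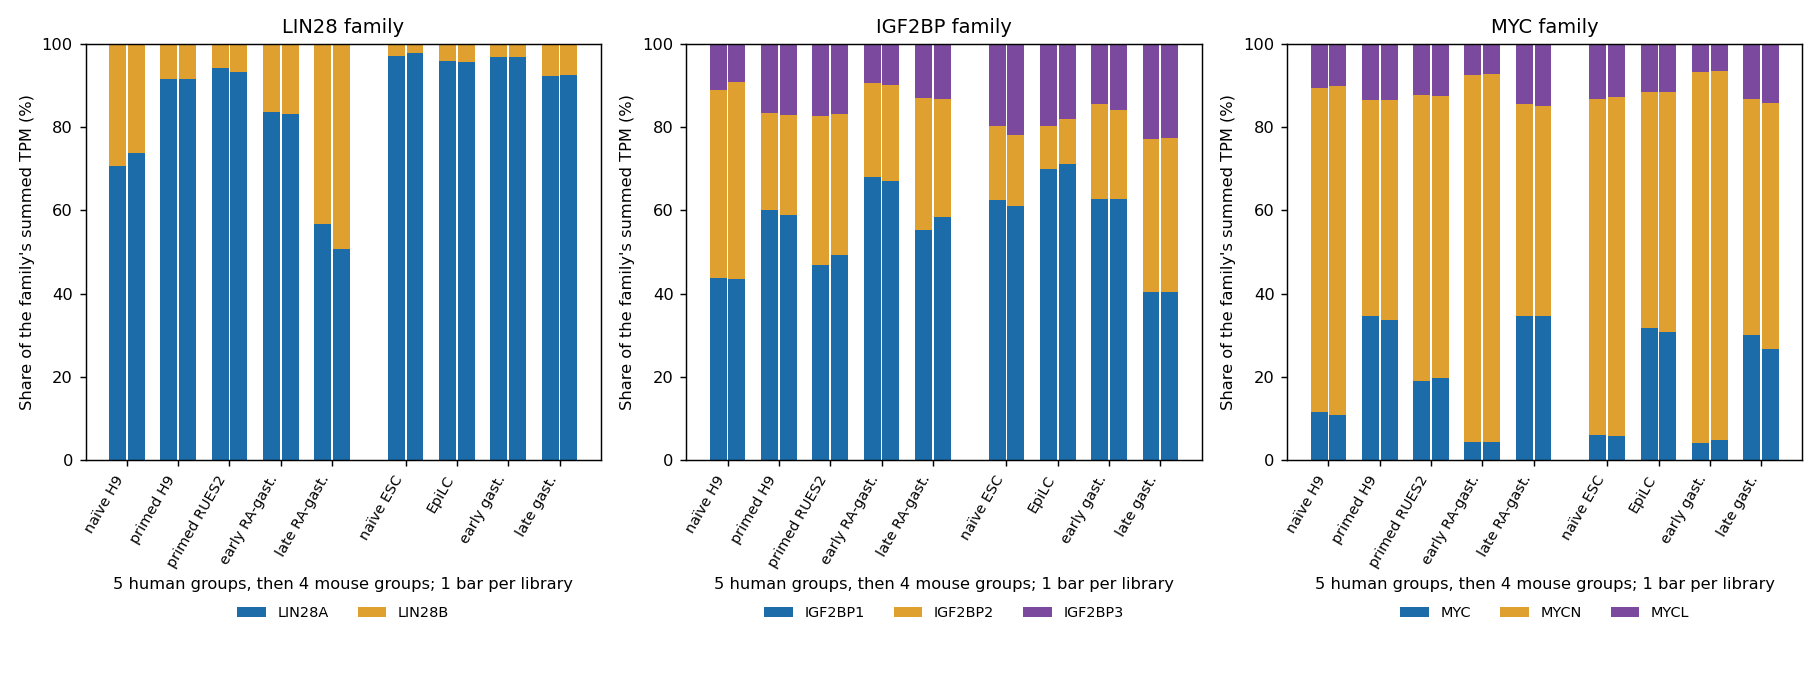
Stacked bars give the share of each paralogue in the summed TPM of its family (y axis, %), with 1 bar per library, human groups on the left and mouse groups on the right of each panel. MYCN takes 88.3% in early RA-gastruloids and 88.8% in early mouse gastruloids on average, and LIN28B takes 46.3% in late RA-gastruloids.

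The steps of both species were set against each other in a single fit of all 18 samples over 14007 genes matched by symbol, in which the human change minus the mouse change was tested. From primed cells (RUES2-GLR ESCs or EpiLCs) to early gastruloids, the change was higher in human for 4 members and lower for 1, against 12.9% and 19.7% of all genes. The 4 were LIN28B (difference 2.26 on the log2 scale, SE 0.16), HMGA2 (1.60, 0.19), IGF2BP1 (1.37, 0.12) and MYC (1.14, 0.18), and TRIM71 went the other way (−1.50, 0.14). MYC fell in both species, by 1.79 from RUES2-GLR ESCs and by 3.05 from EpiLCs. From early to late gastruloids, 0 members had a higher change in human and 3 a lower one (16.7% and 18.7% of all genes). HMGA2 differed by −5.86 (SE 0.15, edgeR's quasi-likelihood test, adjusted p = 5.95e-27). LIN28A differed by −2.13 (0.11) and LIN28B by −1.31 (0.16). Early and late stages lie at other times in each species (24 h and 120 h against day 3 and day 6) and rest on other protocols, so species, time and protocol cannot be told apart.

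The circuit around the members was followed through 4 lists. Of 14 genes of miRNA processing and let-7 turnover (DROSHA, DICER1, the AGO proteins, TUT4, TUT7, DIS3L2 and others), at most 3 were called in any of the 9 steps, and 0 fell. The 3 rose from primed RUES2-GLR ESCs to late RA-gastruloids, where 17.3% of all genes rose and 21% fell. DICER1, the enzyme that cuts pre-miRNAs, rose from naïve to primed H9 ESCs (log2 fold change 1.61), with PRKRA, a partner of it (1.20). Prkra also rose from early to late mouse gastruloids, by 2.07. Ago3 rose from EpiLCs to early gastruloids, by 1.16, and DGCR8, which guides DROSHA, from early to late RA-gastruloids, by 1.29.

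Of 10 genes of the MAX and MLX network, the wider family of dimerisation partners, antagonists and related factors around the MYC proteins, 3 rose and 4 fell from early to late RA-gastruloids (all genes: 11.8% and 13.2%), with a median log2 fold change of −0.35 (all genes: 0.00). MXD4, a MYC antagonist, rose by 2.12 and MXD3 by 1.39 on the log2 scale, 2 of the 3 that rose. MXI1 fell by 2.02 and MLXIPL by 3.51, 2 of the 4 that fell. From early to late mouse gastruloids 2 rose and 1 fell, near the shares of all genes (20.1% and 19.1%), with Mxd4 up by 1.97, Mxd1 up by 1.99 and Mga down (log2 fold change −1.23). MXD4 stood at 208 CPM in late RA-gastruloids against 47.9 CPM in early ones, and Mxd4 at 63.1 CPM against 16.3 CPM in mouse.

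Of 24 known MYC-responsive growth genes (ribosome assembly, nucleotide and polyamine synthesis, CDK4, LDHA and TERT), 0 rose and 2 fell from early to late RA-gastruloids (all genes: 11.8% and 13.2%). LDHA fell by 2.08 and TERT by 1.42 on the log2 scale. Into late mouse gastruloids, 0 rose and 7 fell (all genes: 20.1% and 19.1%), Tert by 2.45 and Cad, an enzyme of pyrimidine synthesis, by 1.39. MYC itself rose in both of these steps. From naïve to primed H9 ESCs, where MYC rose, 1 rose (TERT, 1.94) and 7 fell (all genes: 25.5% and 22.3%). ODC1 fell by 1.78 and SRM, a spermidine synthase, by 1.34. The list medians were −0.40, −0.76 and −0.41 in these 3 steps, beside 0.00, −0.03 and 0.00 for all genes. MYCN, the paralogue with the largest TPM share in every group, was a DET in none of them. Its log2 fold changes were −0.57, −0.85 and −0.94. In early RA-gastruloids, where MYC fell below primed RUES2-GLR ESCs, 3 rose and 2 fell (all genes: 12% and 17.6%). The rises were led by ODC1 (2.36) and CDK4 (1.59), and NOP56 (−1.22) and TERT (−1.01) fell. MYCN was at 0.74 in this step, not a DET. Over the whole course from those cells to late RA-gastruloids, where MYC rose, 2 rose and 3 fell (all genes: 17.3% and 21%). The median was −0.14 (all genes: 0.08), and MYCN was at 0.17, not a DET. Primed RUES2-GLR ESCs, in which MYC was lower than in primed H9 ESCs, had 9 of the 24 lower and 2 higher (all genes: 12.2% and 17.1%). BOP1 (−1.47) and CAD (−1.35) were among the lower, and LDHA (1.29) and NPM1 (1.06) were higher. The median was −0.91 (all genes: −0.12), and MYCN was at −0.51, not a DET. This step carries the scaling shift given above. Over all genes, its lower calls went from 2227 to 1599 without mitochondrial genes and to 1492 with upper quartile scaling. Its higher calls went from 3130 to 3560 and 3685. How many of the 24 keep their call was not examined. Odc1 was the single gene of the 24 called from naïve ESCs to EpiLCs (1.23) and from EpiLCs to early gastruloids (−1.02), steps in which the list medians were 0.06 and −0.03 (all genes: 0.02 and 0.01). Of all genes, 17.7% rose in the first of these and 9.24% fell in the second. Mycn was at −0.27 and 0.39 in them, not a DET. The part of any MYC paralogue in the values of this list was not tested.

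Of 12 genes of the IGF axis, which holds the classic target of the IGF2BP proteins, 8 rose and 1 fell from early to late mouse gastruloids (all genes: 20.1% and 19.1%). H19, the imprinted RNA next to Igf2, went from 5.93 to 2009 CPM and Igf2 from 0.338 to 149 CPM. Igfbp2, a binding protein of the ligands, fell by 1.42 on the log2 scale. In human, where 11 of the 12 were tested, 4 rose and 1 fell from early to late RA-gastruloids (11.8% and 13.2%). IGF2 rose by 6.06, from 21.8 to 1457 CPM, and IGFBP5 by 4.87, while IRS4 fell by 1.47. From naïve to primed H9 ESCs, 6 of the 11 rose and 3 fell (25.5% and 22.3%), with H19 going from 215 to 0.504 CPM and IGF2 from 14.2 to 0.460 CPM. The fibroblast markers moved with H19 and IGF2 in the H9 step (4 of 6 fell, median log2 fold change −4.65) and with Igf2 and H19 in the late mouse step (6 of 6 rose, median 7.03), and their part in these values was not tested.

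Genes with 3 or more let-7 matches in their 3′ UTR were described in the same steps, without a test. From early to late RA-gastruloids, 5 of the 36 rose and 0 fell (all genes: 11.8% and 13.2%). The median log2 fold change was −0.01, and 0.02 for the 32 that are no members (all genes: 0.00). In mouse, 10 of 36 tested rose and 4 fell (all genes: 20.1% and 19.1%). The median was 0.17, also for the 33 non-members alone (all genes: −0.03). From naïve to primed H9 ESCs, 11 rose and 5 fell (all genes: 25.5% and 22.3%), and the median was 0.34 with the members and 0.07 without them (all genes: 0.00). The largest median of non-members, 0.47 (all genes: 0.03), was from mouse naïve ESCs to early gastruloids. There 9 rose and 2 fell (all genes: 16.2% and 6.81%). In the remaining steps the non-member median ran from −0.06 between the primed lines to 0.30 from mouse naïve ESCs to EpiLCs (all genes: −0.12 and 0.02).

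The genes whose pattern was most like that of a member were taken over the 9 group means of log2 CPM, centred within each species, among 11993 genes tested in both. The points share libraries within a species, and the values of Pearson's r are a description with no p. HMGA2 was most like CHSY3 (r = 0.999), PDGFRB (0.979) and ITGB3BP (0.978). LIN28A was most like YBX2 (0.955), FAM131A (0.955) and CNN1 (0.947), and LIN28B was most like MDFI (0.974), TULP4 (0.948) and INPPL1 (0.942). TRIM71 was followed most closely by SYT14 (0.966), PLEKHG6 (0.962) and CBLC (0.955). IGF2BP1 had CAND1 (0.977), NTAQ1 (0.975) and ETFA (0.960) nearest to it. For IGF2BP2 these were FRMD4B (0.954), SOX7 (0.950) and ELK3 (0.944, with 0.274 over the human and 0.999 over the mouse groups alone), and for IGF2BP3 B4GALNT4, PDK2 (both 0.962) and MAGEF1 (0.957). MYC was less closely matched, by RASSF2 (0.910), RBM12 (0.907) and SYNPO2 (0.893). MYCN had UVRAG (0.982), SBNO1 (0.976) and HAPSTR1 (0.971), and MYCL had CHMP1B (0.946), L3HYPDH (0.932) and HBP1 (0.876). Among members themselves, the highest r was 0.801 (HMGA2 and IGF2BP3) and the lowest −0.780 (HMGA2 and MYCN).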

How the data were processed

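The authors isolated polyadenylated RNA, made libraries with a kit that does not mark strand and trimmed reads with Trimmomatic 0.39. STAR alignments to the GRCh38 or GRCm39 assembly were turned into gene counts by featureCounts at its defaults. The deposited values are whole-number read counts per gene, not normalized. The read configuration of each sample and the annotation release are not given in the sources used here. From these counts, edgeR 4.0.16 in R 4.3.3 gave TMM-scaled CPM, kept 18300 human and 15003 mouse genes by its filter, and tested groups within each species in a single quasi-likelihood fit, adjusting over all tested genes by Benjamini-Hochberg. The study states thresholds for proteins only, and the same were applied. DESeq2 1.42.0 was an alternative. Standard errors are the log2 fold change divided by the square root of F. TPM used the length column of the deposited tables. 3′ UTRs came from GENCODE 44 and M39. The tests were checked on simulated data. The members and lists were chosen with earlier results of these data known. Named genes of each list are at most the 2 largest rises and 2 largest falls among DETs per step, with those beyond named after their values were seen. Replicate numbers were not treated as pairs, and replicates differed by more than counting noise.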

Additional observations from a re-analysis of the deposited data

Results flagged for a closer look

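In 8 cases the change of a member differed between human and mouse, by the test of the difference itself in the fit of both species. From primed cells to early gastruloids, the human minus mouse difference of log2 fold changes was 2.26 for LIN28B, 1.60 for HMGA2, 1.37 for IGF2BP1, 1.14 for MYC and −1.50 for TRIM71. From early to late gastruloids, it was −5.86 for HMGA2, −2.13 for LIN28A and −1.31 for LIN28B. Primed cells were RUES2-GLR ESCs in human and EpiLCs in mouse, and only the former gave rise to the gastruloids.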

How the results depend on the processing

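Of 110 results for a member in a comparison, 44 were DETs, and 40 of those kept their direction and their call under every alternative tried other than dropping the fold threshold. No DET changed sign. In the main fits, the share of all genes called was lowest from EpiLCs to early gastruloids (3143 of 15003). It was highest from naïve to primed H9 ESCs (8747 of 18300). Leaving out each library in turn gave 5 to 6 DETs among the members from naïve to primed H9 ESCs, 1 to 3 between the primed lines, 5 in each fit into early RA-gastruloids, 3 between these and late ones, and 5 to 6 over the whole human course. In mouse it gave 4 from naïve ESCs to EpiLCs, 3 to 4 from EpiLCs to early gastruloids, 2 from naïve ESCs to early gastruloids and 5 from early to late gastruloids. For the species differences it gave 5 to 6 and 3 to 4. With no threshold on the fold, members called numbered 8, 6, 9 and 8 in the first 4 human steps. All genes called there numbered 13777, 10710, 10218 and 9519 of 18300. In the mouse steps 8, 9, 8 and 8 members were called, beside 9900, 9410, 9445 and 11415 of 15003 genes. For the species difference from early to late it was 8 members, beside 8302 of 14007 genes. Most genes were thus called at this setting, and these counts are no result about the members. Between the primed lines 1 member was called, in place of 2, with the size factors of DESeq2, upper quartile scaling, DESeq2, at least 10 counts per sample, the compared groups alone or no mitochondrial genes, the last chosen after seeing the data. With the replicate block the counts were those of the main fit (5, 2, 5, 3 and 6 in human, 4, 4, 2 and 5 in mouse, 5 and 3 between species). Same-numbered libraries did not deviate together (r from −0.112 to 0.0684 over 10 human pairs and −0.0483 to 0.00806 over 6 mouse pairs), so they share only a number.

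Signs that turned belonged to log2 fold changes near 0, none a DET, and the cause was not tested. Between the primed lines TRIM71 was 0.0704 and IGF2BP2 0.0422 with the size factors of DESeq2, 0.0662 and 0.0400 without mitochondrial genes, and 0.0708 and 0.0450 with DESeq2. With upper quartile scaling LIN28A was 0.00556, TRIM71 0.106, HMGA2 0.00165 and IGF2BP2 0.0793. With at least 10 counts they were 0.00898, 0.110, 0.00552 and 0.0844, and with the compared groups alone 0.00562, 0.109, 0.00257 and 0.0863. MYCL from naïve to primed H9 ESCs was −0.0825 with the size factors of DESeq2 and with DESeq2, and −0.0231 without mitochondrial genes. IGF2BP3 into early RA-gastruloids was −0.0311, −0.00810 and −0.00716 with upper quartile scaling, at least 10 counts and the compared groups alone. Mouse Lin28a from early to late was 0.0440 with the size factors of DESeq2, 0.0439 with DESeq2 and 0.00587 without mitochondrial genes, and Igf2bp1 from EpiLCs to early gastruloids was 0.000325 without a filter. Leaving out single libraries gave ranges across 0 of −0.0418 to 0.0779 for MYCL (naïve to primed H9), of −0.276 to 0.0194 for LIN28A, −0.137 to 0.110 for TRIM71 and −0.162 to 0.0784 for IGF2BP2 between the primed lines, of −0.00990 to 0.148 for IGF2BP3 into early RA-gastruloids, and of −0.321 to 0.0182 for LIN28B from early to late RA-gastruloids. In mouse they were −0.0505 to 0.0325 for Hmga2 (naïve to EpiLC), −0.0983 to 0.0221 for Igf2bp1 (EpiLC to early) and −0.0200 to 0.00478 for Lin28a (early to late). Over all genes, 58.4% of DETs between the primed lines were higher in RUES2-GLR with TMM scaling, 68.7% with the size factors of DESeq2 and 71.2% with upper quartile scaling. In the longest 3′ UTR of each gene, HMGA2 had 0 let-7 matches in place of 4 and mouse Hmga2 4 in place of 0. The shallowest library (3681739 counts) would list a gene with 3 counts at 0.815 CPM.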
